A study of Mus musculus with 4 samples.

Results

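Mitochondrial fatty acid oxidation and its regulators were followed through 33 genes in mouse embryonic stem cell-derived cardiomyocytes, cells of the CGR8 line that had been treated with one of 2 small interfering RNAs for 48 hours. The genes were taken from a list of the pathway, chosen with earlier results of these data known, so the set is only described beside all features. They were matched to array probes by RefSeq accession, with the brightest probe standing for each gene. All 33 were among the 20918 features (genes and unnamed probes) that could be tested. By role, 5 genes serve fatty acid uptake and activation, 5 serve entry into mitochondria, and 15 serve the beta-oxidation cycle and its electron transfer. The other 8 are grouped as regulators, a role that here also holds the kinase gene Pdk4 and the uncoupling protein gene Ucp3. The siScr group received a scrambled RNA and the siErbB4 group an RNA against the receptor tyrosine kinase gene Erbb4, both introduced with the Pepmute reagent into cells kept in DMEM-LG medium with serum. Each group held 2 samples, numbered replicate 1 and replicate 2 in their titles, and each sample was read on its own 1-colour array, so 4 arrays carry every value given here. The labels do not say whether the replicates came from separate cultures, and each p-value therefore reflects only how far these samples vary, which may be technical.

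Long-chain fatty acids enter heart muscle cells through carriers in the plasma membrane, are joined to coenzyme A, and cross into mitochondria as carnitine esters, a step that malonyl-CoA holds back. Inside, each turn of beta-oxidation runs through a dehydrogenase, a hydratase, a second dehydrogenase and a thiolase, and electron transfer flavoprotein carries electrons from the first of these to the respiratory chain. The nuclear receptors PPAR and ERR, with their coactivators of the PGC-1 family, switch these genes on together, and the pathway is known to gain weight as the heart matures after birth.

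Levels are given as scaled log2 signal, the log2 of a probe's processed intensity minus the 75th percentile of its array, so that 0 is the array's 75th percentile. Those percentiles lay between 878 and 989 intensity units, and the share of probes well above background from 64.8% to 68.5%. All 33 genes were well above background on all 4 arrays, and the number of arrays limits the precision. Levels of different genes are not set against each other, because probes differ in how brightly they bind. The Erbb4 probe read 9.02 and 11.9 intensity units in siScr replicates 1 and 2 and 2.83 and 15.0 in siErbB4 replicates 1 and 2, and was well above background only on the last, so it does not show which samples carried the knockdown. The descriptions of both siErbB4 samples name the scrambled RNA and one source name reads ErbB5, and the groups used here follow the titles and the transfection label. The culture protocol names 2 incubation times without saying which samples had which, so whether they differ between the replicate numbers is not known here. All 12 cardiomyocyte markers examined (Myh6, Tnnt2, Actc1 and others) were well above background on every array, as were all 10 fibroblast and matrix markers and all 8 markers of pluripotent cells. All arrays were on 1 slide, where replicate 2 arrays held positions 1 and 2 and replicate 1 arrays positions 3 and 4, so replicate number and position cannot be told apart.

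With the siRNA as the comparison the genes scattered around no difference, with a median log2 difference of -0.01 (siErbB4 minus siScr) beside -0.01 over all features, and none passed the test. With the replicate number as the comparison, 29 of 33 genes were on average higher in replicate 2, beside 53% of all features. The median log2 difference was 0.32 beside 0.02 over all features. Cd36, Lpl, Cpt1b, Esrrg and Ppargc1b, 5 of the 33, rose past the threshold, beside 2.88% of all features. These calls depended on the settings, and with dim probes kept in the test 0 members and 0 features were called. The difference had the same sign in both groups at all but 2 genes. It was upwards at 28, beside 37.3% of all features, and downwards at 3, beside 33.1%.

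**Figure D1:**
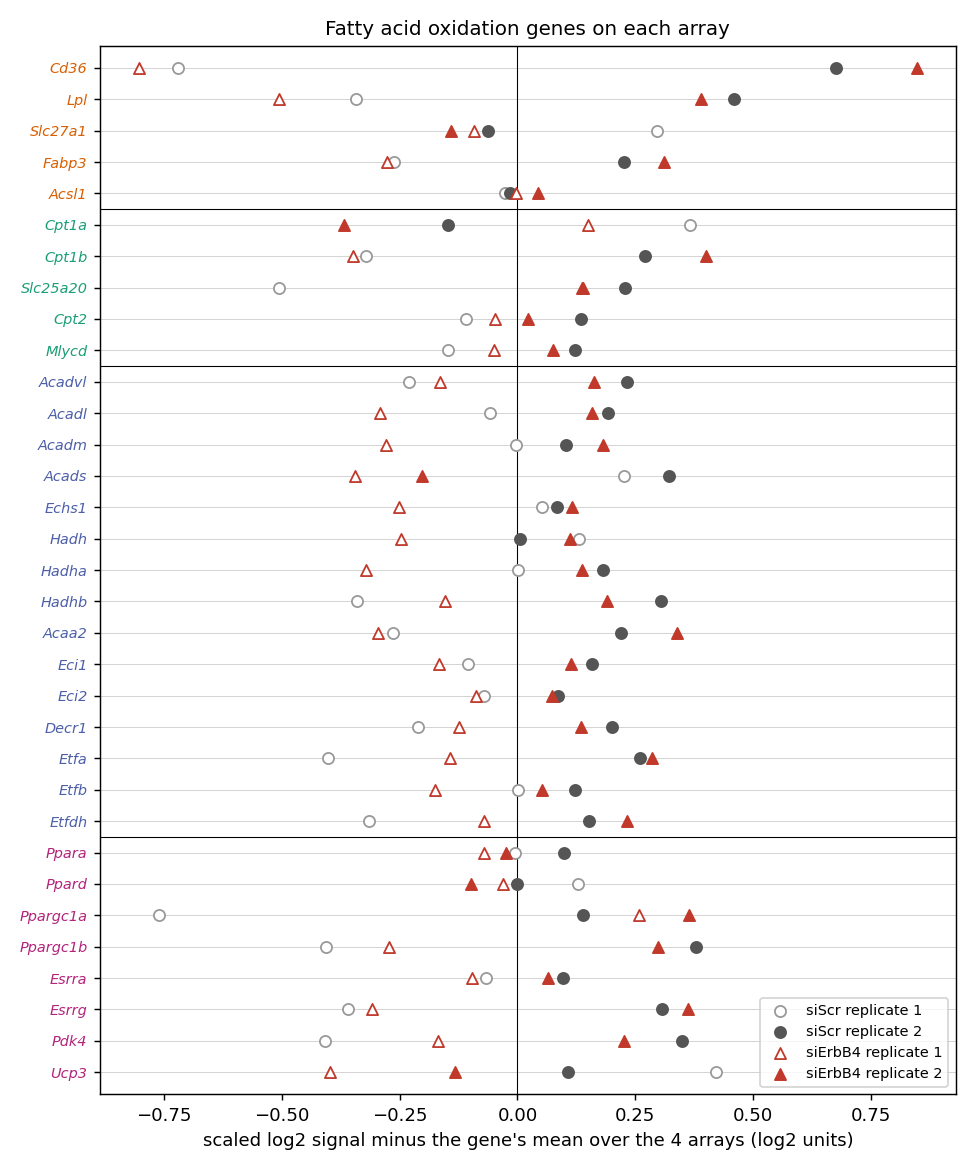
Scaled log2 signal of each of the 33 genes on the 4 arrays, minus that gene's mean over the arrays (horizontal axis, log2 units), with siScr as circles, siErbB4 as triangles, replicate 1 open and replicate 2 filled; gene names are coloured by role and lines separate the roles. Filled symbols lie to the right of open ones at most genes, whichever RNA was used, as in Cd36, while Cpt1a has the opposite order, and at Acads both triangles lie left of both circles.

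The test of siErbB4 against siScr asked whether the RNA against Erbb4 altered gene expression. In limma, with Benjamini-Hochberg adjustment at a threshold of 0.05, 0 of 20918 features passed (0% called), so the 0 members called stand against an equal background, and 374 features, 2 of them members, had an unadjusted p under 0.05. The pair of siErbB4 arrays was above the siScr pair at 2 members and below it at 5, together 21.2% of the set, while 29% of all features showed such a gap (13% upwards and 16% downwards). On average 15 members were above 0, beside 47.1% of features. Within replicate 1 the median siErbB4 minus siScr difference of the set was -0.03, and within replicate 2 it was -0.04. Leaving out 1 array at a time moved the fitted median between -0.19 and 0.10.

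Acads, the dehydrogenase for short-chain fatty acids, had the lowest unadjusted p. Its scaled log2 level was 0.71 and 0.80 in siScr replicates 1 and 2 and 0.14 and 0.28 in siErbB4 replicates 1 and 2. The groups did not overlap, and the siErbB4 minus siScr difference was -0.57 within replicate 1 and -0.52 within replicate 2. The fit gave a log2 difference of -0.55 (standard error, SE, 0.14; 95% interval -0.93 to -0.16), and its adjusted limma p was 1.00. With 1 array left out at a time it stayed between -0.62 and -0.48.

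Ucp3, an uncoupling protein of muscle mitochondria whose gene answers to fatty acids, read -0.08 and -0.39 with siScr and -0.90 and -0.63 with siErbB4, in the order of replicate number. Both siErbB4 arrays were the lower ones, with differences of -0.82 within replicate 1 and -0.24 within replicate 2 (log2 difference -0.53, SE 0.19, adjusted p = 1.00 by limma). A second Ucp3 probe was below background on all 4 arrays and gives no check of this.

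Ppargc1a, the coactivator PGC-1 alpha, was the member with the largest positive difference. Its levels were 0.75 and 1.65 with siScr and 1.76 and 1.87 with siErbB4. The siScr replicate 1 array stood apart, since the other 3 lay within a narrow range. The log2 difference was 0.62 (SE 0.34, 95% interval -0.32 to 1.57, adjusted limma p 1.00), made up of 1.02 within replicate 1 and 0.22 within replicate 2, and it was 0.17 without siScr replicate 1 and 1.07 without siScr replicate 2. A second Ppargc1a probe differed by 0.33.

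Slc27a1, the fatty acid transport protein 1, and Slc25a20, the carnitine-acylcarnitine translocase of the inner mitochondrial membrane, completed the 5 lowest p-values together with Acads, Ucp3 and Ppargc1a. Slc27a1 read -1.31 and -1.67 with siScr and -1.70 and -1.75 with siErbB4, again with siScr replicate 1 apart from the rest (log2 difference -0.23, SE 0.18). For Slc25a20 the levels were -0.93, -0.19, -0.28 and -0.28 in siScr 1, siScr 2, siErbB4 1 and siErbB4 2, so that the difference of 0.28 (SE 0.29) was 0.64 within replicate 1 and -0.09 within replicate 2. Both had an adjusted limma p of 1.00.

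The remaining 28 members had siErbB4 minus siScr differences between -0.22 and 0.16. Cd36 had the widest 95% interval, -2.08 to 2.17 around 0.04, and that of Acsl1, which encodes a long-chain acyl-CoA synthetase, ran from -0.31 to 0.39. A p-value that misses the threshold does not show that these genes were alike in the 2 groups.

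Marker lists of other cell types also leaned one way in this comparison, with 0 markers called. Fibroblast and matrix markers were below 0 at 10 of 10 genes (median -0.45) and endothelial markers at 5 of 5 (median -0.50). Markers of pluripotent cells were above 0 at 7 of 8 (median 0.38). Of all features, 52.9% were below 0 and 47.1% above. Within replicate 1 the medians of these lists, in the same order, were -0.72, -0.56 and 0.64. Within replicate 2 they were smaller, at -0.09, -0.14 and 0.03. There, 3 of 10 fibroblast markers were above 0, 5 of 5 endothelial markers below 0, and 3 of 8 pluripotent markers below 0. Summed signal, in units of the array's 75th percentile, was 88.0 and 32.4 with siScr and 70.2 and 30.3 with siErbB4 for the fibroblast list, and 3.49 and 4.59 against 3.38 and 3.53 for the endothelial list. For the pluripotent list it was 25.6 and 27.5 against 40.3 and 30.6. Cardiomyocyte markers were below 0 at 10 of 12 genes (median -0.07). Their part in the differences of Acads, Ucp3 and Ppargc1a was not tested.

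**Figure D2:**
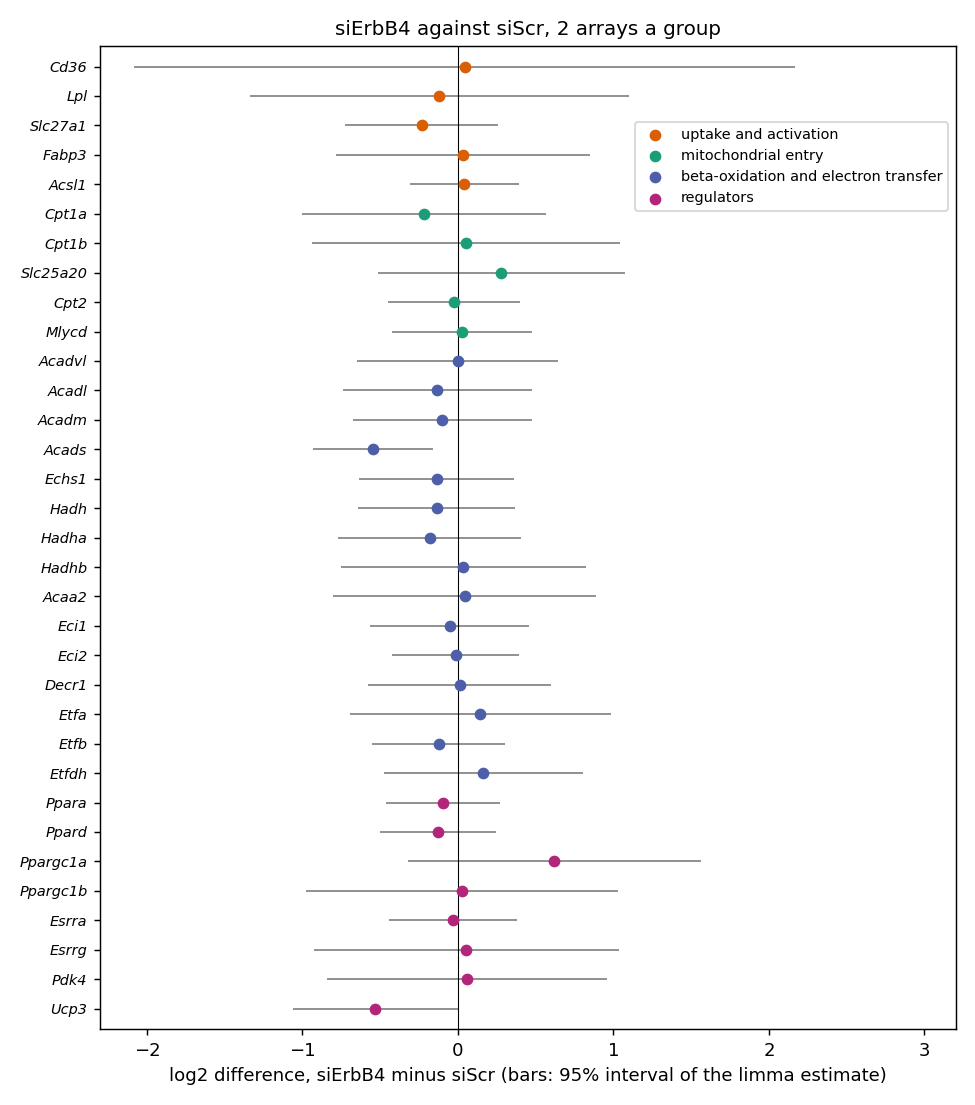
Log2 difference, siErbB4 minus siScr, of each gene (points, coloured by role) with the 95% interval of the limma estimate over 2 arrays a group (bars). The intervals cover 0 at every gene except Acads and Ucp3, neither of which passed after adjustment, and that of Cd36 spans -2.08 to 2.17.

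The comparison of replicate 2 with replicate 1 asked how far the 2 arrays of a group differed, and whether the difference repeated between the groups. By limma with the same adjustment, 1090 features passed (5.21%), with 603 higher (2.88%) and 487 lower (2.33%) in replicate 2. Of the 33 members 5 rose and 0 fell, and 15 had an unadjusted p under 0.05, beside 23% of features. Differences were above 0 at 29 members and below 0 at 4, where the shares of all features were 53% and 47%. Both replicate 2 arrays lay above both replicate 1 arrays at 24 members and below at 1, or 75.8% of the set, where 55.4% of all features did not overlap (29.4% higher and 26% lower). Replicate 2 was above replicate 1 in both groups at 28 members, beside 37.3% of all features, and below in both at 3, beside 33.1%.

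Calls of single members changed with each array left out. Without siScr replicate 1, without siScr replicate 2 or without siErbB4 replicate 2, the number of members called was 0, and without siErbB4 replicate 1 it was 2, namely Cd36 and Lpl (0, 0, 68 and 1548 features were then called, in that order). The median difference of the set, by contrast, stayed between 0.24 and 0.35. With dim probes kept in the test, 0 members and 0 of 32800 features were called, although 4678 features had an unadjusted limma p under 0.05.

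**Figure D3:**
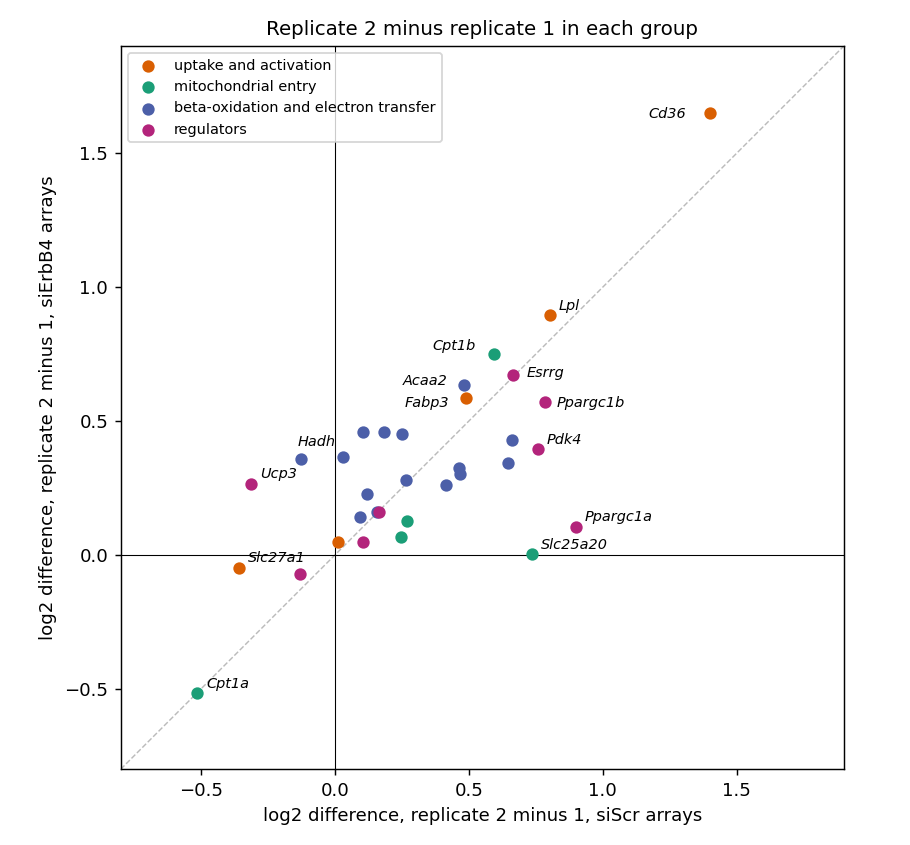
Log2 difference, replicate 2 minus replicate 1, in the siScr arrays (horizontal) and in the siErbB4 arrays (vertical) for the 33 genes, coloured by role, with the line of equal difference dashed. The 28 genes with positive values in both groups fill the upper right quadrant, led by Cd36 at 1.40 and 1.65, and Cpt1a is farthest to the lower left, at -0.51 and -0.52.

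Among the genes of uptake, 2 of 5, Cd36 and Lpl, rose, beside 2.88% of all features called higher. Fabp3, Slc27a1 and Acsl1 did not pass the test. Cd36 encodes the fatty acid translocase of the cell surface. It read -3.22 in siScr replicate 1, -1.82 in siScr replicate 2, -3.30 in siErbB4 replicate 1 and -1.65 in siErbB4 replicate 2. The siErbB4 minus siScr difference was -0.08 within replicate 1 and 0.17 within replicate 2, and its fitted 95% interval was wide, -2.08 to 2.17. Both replicate 2 arrays were far above both replicate 1 arrays. The rise was 2.88-fold, a log2 difference of 1.52 (SE 0.12, 95% interval 1.21 to 1.84, adjusted limma p 0.0189). Over the 11 alternative settings the adjusted p ran from 0.00186 to 0.121 and passed in 7, and with normexp background correction the difference was 1.08.

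Lpl, the lipase that frees fatty acids from circulating lipoproteins, read 4.13 and 4.93 with siScr and 3.97 and 4.86 with siErbB4. Again the replicate 2 arrays were the higher pair in each group, by 0.80 and 0.90. The rise was 1.80-fold (log2 difference 0.85, SE 0.12, adjusted limma p 0.0348, from 0.00534 to 0.180 over the alternatives), and its second probe gave 0.78.

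Fabp3, the fatty acid-binding protein of heart and muscle cytosol, had levels of 5.42 and 5.90 in siScr and 5.40 and 5.99 in siErbB4. The replicate numbers did not overlap, but the log2 difference of 0.54 (SE 0.11, adjusted limma p 0.0667) missed the threshold. Acsl1 read 2.00, 2.01, 2.02 and 2.07 over the 4 arrays, the smallest spread of any uptake gene, with a difference of 0.03 (SE 0.11) that turned to -0.04 with normexp. Slc27a1 was on average lower in replicate 2, with -0.36 in siScr and -0.05 in siErbB4 (log2 difference -0.20, SE 0.17).

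Of the genes of mitochondrial entry 1 of 5 rose, Cpt1b, beside 2.88% of all features called higher. Carnitine palmitoyltransferase 1, the malonyl-CoA-sensitive enzyme of the outer membrane, has a muscle form, Cpt1b, and a form of liver and most other tissues, Cpt1a. Cpt1b read 1.07 and 1.67 with siScr and 1.04 and 1.79 with siErbB4, and rose 1.59-fold in replicate 2 (log2 difference 0.67, SE 0.11, adjusted limma p 0.0481, from 0.0118 to 0.285 over the alternatives, 3 of which kept the call). Cpt1a read 0.73 and 0.21 with siScr and 0.51 and -0.0047 with siErbB4. It was the member at which both replicate 2 arrays lay below both replicate 1 arrays, with a log2 difference of -0.52 (SE 0.14, adjusted limma p 0.127).

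Other probes of the 2 genes gave 0.57 for Cpt1b and -0.33 for Cpt1a. Taken as a change in the ratio of Cpt1b to Cpt1a within an array, the shift from replicate 1 to replicate 2 was 1.11 in siScr and 1.27 in siErbB4 on the log2 scale, a pair chosen after the values were seen. An exact two-sided permutation test of 2 arrays against 2 gave p = 0.333, the smallest it can give. The choice of the pair fixed this outcome in advance, so the test decides nothing.

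Cpt2, the inner-membrane partner of that enzyme, had a difference of 0.16 (SE 0.11) and Mlycd, the decarboxylase that removes malonyl-CoA, 0.20 (SE 0.11). Slc25a20 was 0.74 higher in replicate 2 of siScr and 0.0027 higher in replicate 2 of siErbB4. None of the 3 passed the test.

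Promoter windows are shown because Cd36 and Cpt1a, the genes at opposite ends of the replicate comparison, are both textbook targets of PPAR. RefSeq windows of 300 bases, 250 before and 50 after the start of transcription (assembly GRCm38.p6), matched 28 of the 33 members. No window was matched for Lpl, Cpt1b, Acaa2, Decr1 and Ppargc1b, 3 of which are among the 5 members that rose, so the search does not cover them. Neither the ERR element TCAAGGTCA nor the direct repeat of half-sites with 1 spacer base, bound by PPAR with RXR, was found, on either strand, in the 34 windows of these members, while 0.423% and 0.0396% of all 32851 windows held them. A longer form, AAGGTCA, was also searched and occurred at 1 of 28 members (3.57%), Acadm, beside 5.38% of all genes. The shorter half-site AGGTCA, which both the ERR element and the direct repeat contain, was searched after these gave no match. It occurred at 6 of 28 members (21.4%), Acadm, Acadvl, Cd36, Cpt1a, Echs1 and Ucp3, beside 18.1% of all genes. The windows of the 2 genes follow, each written on the strand of its gene, with the half-site in capitals where it reads in the reverse direction. That of Cd36 lies on the minus strand at chr5:17835847-17836146 with the half-site 228 bases before the start, and that of Cpt1a on the plus strand at chr19:3323051-3323350 with the half-site 94 bases before it.
Cd36: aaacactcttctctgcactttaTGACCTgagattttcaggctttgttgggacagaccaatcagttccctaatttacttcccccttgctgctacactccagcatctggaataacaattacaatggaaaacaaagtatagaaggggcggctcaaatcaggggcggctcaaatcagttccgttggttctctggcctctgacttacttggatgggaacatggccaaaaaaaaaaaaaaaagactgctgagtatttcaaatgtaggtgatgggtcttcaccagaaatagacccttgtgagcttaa
Cpt1a: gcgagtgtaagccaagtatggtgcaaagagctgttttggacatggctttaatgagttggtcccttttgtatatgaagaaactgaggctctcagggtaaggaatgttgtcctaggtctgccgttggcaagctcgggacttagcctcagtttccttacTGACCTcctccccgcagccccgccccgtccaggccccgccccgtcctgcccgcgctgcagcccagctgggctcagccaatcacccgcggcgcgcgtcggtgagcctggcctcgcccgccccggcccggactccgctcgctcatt
One such match stands in each of these windows, which describes their letters only.

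All 15 genes of the beta-oxidation cycle and its electron transfer were on average higher in replicate 2, by a median of 0.32, and 13 of them had both replicate 2 arrays above both replicate 1 arrays, beside 29.4% of all features. None passed the test, beside 2.88% of all features called higher. An unadjusted limma p under 0.05 was found at 7 of the 15, beside 23% of all features. The differences ran from 0.12 to 0.56, below the smallest difference of the called members, 0.67 for Esrrg.

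Acaa2, which encodes a mitochondrial thiolase, had the largest difference of these. It read 4.27 and 4.75 in siScr and 4.24 and 4.87 in siErbB4, a log2 difference of 0.56 (SE 0.11, adjusted limma p 0.0665). Hadha and Hadhb encode the alpha and beta subunits of the trifunctional protein, which carries out the later steps on long chains. Hadhb read 4.05 and 4.69 in siScr and 4.23 and 4.57 in siErbB4 (log2 difference 0.49, SE 0.13), and Hadha read 1.40, 1.58, 1.08 and 1.53 in the same order (0.32, SE 0.15).

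Of the acyl-CoA dehydrogenases, which open the cycle, those for very long, long and medium chains differed by 0.39 (Acadvl, SE 0.11), 0.35 (Acadl, SE 0.13) and 0.28 (Acadm, SE 0.14). Acads differed by 0.12 (SE 0.27), and there the 2 replicate numbers overlapped. Echs1, the short-chain enoyl-CoA hydratase, gave 0.20 (SE 0.14). Hadh, the short-chain hydroxyacyl-CoA dehydrogenase, was the gene of this role whose sign differed between the groups, at -0.13 in siScr and 0.36 in siErbB4.

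Enzymes that prepare unsaturated fatty acids for the cycle differed by 0.27 for the isomerase gene Eci1, 0.16 for Eci2 and 0.34 for the reductase gene Decr1, with an SE of 0.11, 0.10 and 0.11. The electron transfer flavoprotein genes gave 0.55 for Etfa (SE 0.13) and 0.17 for Etfb (SE 0.12), and Etfdh, whose product passes the electrons on to ubiquinone, gave 0.38 (SE 0.13). Etfa read 3.48 and 4.14 in siScr and 3.74 and 4.17 in siErbB4, so its lowest array was siScr replicate 1.

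The genes grouped as regulators split into those that followed the replicate number and those that did not. Esrrg, the receptor ERR gamma, which is rich in heart and other oxidative tissue, read 1.03 and 1.70 with siScr and 1.08 and 1.75 with siErbB4. The step was 0.67 in each group, and the rise of 1.59-fold passed the test (log2 difference 0.67, SE 0.11, adjusted limma p 0.0448, from 0.00912 to 0.260 over the alternatives, 6 of which kept the call). Its second probe gave 0.55. The related receptor gene Esrra read 3.42 and 3.58 in siScr and 3.39 and 3.55 in siErbB4, a difference of 0.16 (SE 0.10) that did not pass.

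Ppargc1b, the coactivator PGC-1 beta, rose 1.60-fold. Its levels were -1.76 and -0.98 in siScr and -1.63 and -1.06 in siErbB4, with the higher pair again in replicate 2 (log2 difference 0.68, SE 0.12, adjusted limma p 0.0496, from 0.0121 to 0.290 over the alternatives, 4 of which kept the call). Ppargc1a differed by 0.90 between the siScr arrays and by 0.11 between the siErbB4 arrays (0.50, SE 0.36).

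Ppara, the PPAR of fatty acid-burning tissues, read -1.99, -1.88, -2.05 and -2.01 in siScr 1, siScr 2, siErbB4 1 and siErbB4 2, and Ppard, the more widely expressed PPAR, 0.45, 0.32, 0.29 and 0.22. At their brightest probes neither separated the replicate numbers, with differences of 0.08 (SE 0.11) and -0.10 (SE 0.12). The other 2 probes of Ppara gave 0.33 and 0.35 for the replicates, each with both replicate 2 arrays above both replicate 1 arrays. For siErbB4 minus siScr they gave 0.23 and 0.08 where the brightest probe gave -0.09. The probes of this gene thus differed in sign for the siRNA, and in the separation of the replicate numbers. Pdk4, the kinase that shuts off pyruvate dehydrogenase when fatty acids are burned, read -0.38 and 0.37 in siScr and -0.14 and 0.25 in siErbB4 (0.58, SE 0.14, adjusted limma p 0.0922). Ucp3 had opposite signs in the groups, -0.31 in siScr and 0.27 in siErbB4.

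Whether any of these steps differed between siScr and siErbB4 cannot be tested, because 1 array per group and replicate number leaves no residual degrees of freedom.

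Other genes of fatty acid metabolism, 69 of 73 listed, gave 0 calls in either direction in both comparisons by limma, where 0% of all features were called for the siRNA and 5.21% for the replicate number. At an unadjusted p under 0.05 there were 1 and 16 of the 69, beside 1.79% and 23% of all features. Their median difference between replicate numbers was 0.07, and the arrays did not overlap at 24 genes higher and 13 lower in replicate 2, or 53.6% beside 55.4% of all features. Those with the lowest p were Angptl4, a secreted inhibitor of lipoprotein lipase, at -0.61 (SE 0.11), the carnitine acetyltransferase gene Crat at 0.68 (SE 0.14) and the propionyl-CoA carboxylase gene Pccb at 0.60 (SE 0.13). The median was 0.09 for 11 genes of peroxisomal oxidation, and for the odd-chain and branched-chain routes it was 0.23 over 13 genes. It was -0.04 over 19 genes of acyl-CoA synthesis, carnitine and lipid droplets, and -0.00040 over 17 other regulators. For the list of malonyl-CoA and fatty acid synthesis it was 0.01 over 9 genes. That synthesis list also holds Prkaa1, Prkaa2 and Prkab2, subunit genes of AMP-activated protein kinase. Their siErbB4 minus siScr differences were 0.12, 0.16 and -0.04. For siErbB4 minus siScr the lowest p-values belonged to genes of fatty acid synthesis, the desaturases Scd2 at -0.41 (SE 0.14) and Scd1 at -0.86 (SE 0.35) and the synthase Fasn at -0.36 (SE 0.14). Negative siErbB4 minus siScr differences were found at 6 of 9 genes of the synthesis list (median -0.14), 11 of 13 of the odd-chain and branched-chain routes (-0.15), 8 of 11 of peroxisomal oxidation (-0.07), 10 of 19 of acyl-CoA synthesis, carnitine and lipid droplets (-0.04) and 5 of 17 other regulators (0.10), beside 52.9% of all features.

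Markers of cell types also differed between the replicate numbers. Of 12 cardiomyocyte markers 11 were higher in replicate 2 and 2 rose past the threshold, the troponin gene Tnni3 at 0.97 and the calcium release channel gene Ryr2 at 0.69, with a list median of 0.35. Over all features 2.88% were called higher and 2.33% lower. Their summed signal, in units of the array's 75th percentile, was 1786 and 1734 in the replicate 1 arrays of siScr and siErbB4 and 2187 and 2029 in the replicate 2 arrays. Summed over the 33 oxidation genes it was 309 and 304 in replicate 1 and 400.1 and 398 in replicate 2. Of 10 fibroblast and matrix markers 9 were lower and 4 fell (Col1a1, Postn, Fn1 and Pdgfra), with a median of -1.33 and a summed signal of 88.0 and 70.2 in replicate 1 against 32.4 and 30.3 in replicate 2. Of 3 smooth muscle markers tested 2 fell, Acta2 at -1.22 and Tagln at -1.04, and the list had a median of -1.04 and summed to 535 and 424 in replicate 1 against 241 and 234 in replicate 2. In bulk RNA, fewer cells of a type and less RNA per cell cannot be told apart, and the part that the cell types had in the oxidation genes' differences was not tested.

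Cells other than muscle also express Cd36 and Lpl, among them fat cells, macrophages and endothelium. Of 5 fat cell markers, Plin1 and Lep were below background on all 4 arrays and Adipoq and Cidec on 3, while Retn was well above it on all 4 and read -5.25 and -4.99 with siScr and -5.07 and -4.89 with siErbB4 (replicate difference 0.23, SE 0.12, adjusted limma p 0.358). The list had a summed signal of 0.0511 to 0.0610 in replicate 1 and 0.0551 to 0.0710 in replicate 2. Of the macrophage and blood markers, the lysozyme gene Lyz2 rose in replicate 2 by 3.24 (SE 0.25, adjusted limma p 0.0189), while Csf1r differed by 0.04 and Itgam by -0.15. Adgre1 was lower in replicate 2 in both groups, but it cleared background on only 3 of 4 arrays, so no size is given for it. Of the 4 genes of this list that were tested, 2 were on average higher and 2 lower in replicate 2. The list summed to 7.66 and 6.96 in replicate 1 and 8.0 and 6.85 in replicate 2. Itgam, its brightest probe, weighed most in that sum, so the sum says little about Lyz2 or Adgre1. Endothelial markers had a median of -0.46 over 5 genes, 4 of them lower in replicate 2 and 1, Kdr, higher (0.30). Emcn was below background on all arrays. The list summed to 3.49 and 3.38 in replicate 1 and 4.59 and 3.53 in replicate 2, a sum in which Kdr, its brightest probe, weighed most. Endoderm and hepatic markers were higher in replicate 2 at 5 of 6 genes (median 0.75), and 1, Afp, rose, beside 2.88% of all features called higher. Their summed signal was 5.07 and 5.62 in replicate 1 and 8.55 and 9.0 in replicate 2. Their part in the result was not tested.

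**Figure D4:**
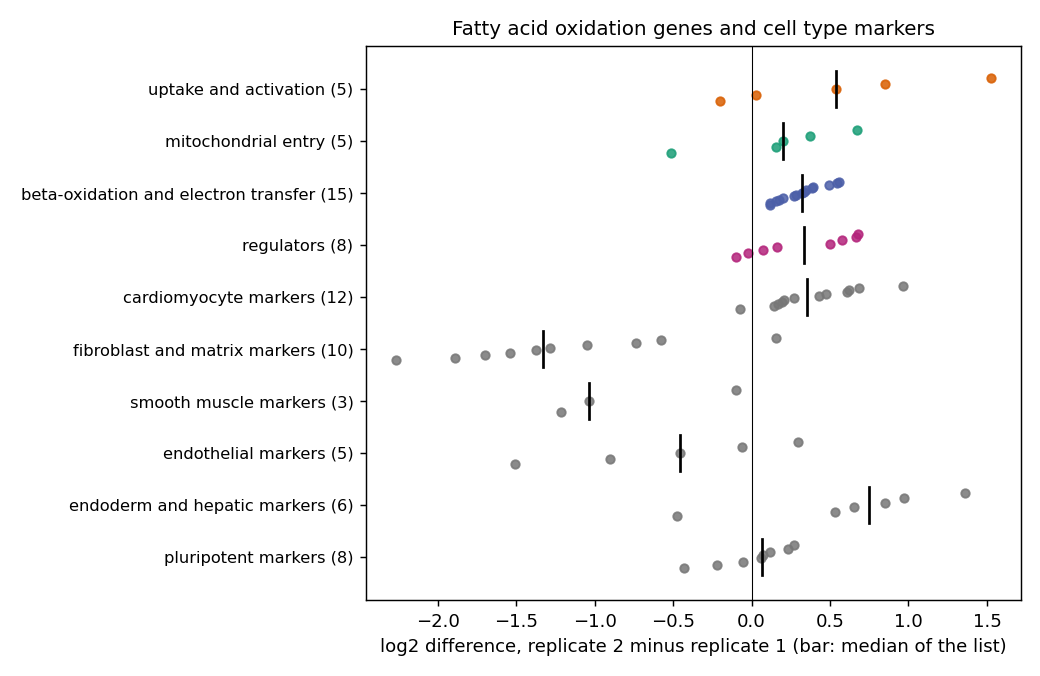
Log2 difference, replicate 2 minus replicate 1, of each oxidation gene by role (coloured points) and of each tested marker of a cell type (grey points), with the number of genes in brackets and the list's median as a bar. The oxidation genes and the cardiomyocyte markers lie mostly to the right of 0, with medians of 0.32 over all 33 genes and 0.35, and the fibroblast and smooth muscle markers to the left, with medians of -1.33 and -1.04.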

How the data were processed

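Total RNA of 4 samples was labelled with Cy3 and hybridised to Agilent arrays, and Feature Extraction 10.7.1.1 produced the files, per the submitters' processing notes. Per the file headers, the deposited processed intensity was background-subtracted and detrended within each array, without scaling from array to array. Raw median intensity, used for normexp, and the spot flags came from the same deposited files. A value table deposited by the authors holds log2 values, and at every probe it matched, within 0.00291, the scaling used here: log2 of the processed signal, less each array's 75th percentile.

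Control spots (1377 of 44397) and outlier spots (131 to 179 per array) were left out, and spots of a probe were averaged on the log2 scale. Probes well above background on both arrays of a group were kept, 25690 of 39429, with 12 lost to outliers. A RefSeq table of assembly GRCm38.p6 named 27498 probes, and the array's own annotation names another build, so gene coordinates other than the promoter windows are not given. The brightest kept probe stood for a gene, and 12 members had several probes. Unnamed probes stayed in the test.

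Groups, and separately replicate numbers, went into linear models fitted by limma 3.58.1 under R 4.3.3 (eBayes, two-sided; 2 residual degrees of freedom), with Benjamini-Hochberg adjustment over all 20918 features and a threshold of 0.05. Alternatives were normexp background correction, quantile normalization, 2 other filters on dim probes, the mean of a gene's probes, the authors' table, each array left out, and group with replicate number in 1 model. The code was tested on simulated data. The members, gene lists and alternatives were chosen with earlier results of these data known. The rule for full statistics took members that were called or, where fewer than 5 were, the 5 with the lowest p, and the 3 lowest p among other pathway genes.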

Additional observations from a re-analysis of the deposited data

How the results depend on the processing

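For siErbB4 against siScr no setting called a feature or a member, and the sign of many small differences depended on the setting. Normexp background correction gave 0.041 for Cpt2 and -0.0069 for Ppargc1b, quantile normalization gave 0.036 for Acadvl and 0.0059 for Eci2, and the mean of all kept probes gave -0.055 for Acsl1, -0.046 for Cpt1b, -0.12 for Decr1 and 0.074 for Ppara, each opposite to the brightest probe at the main scaling. Leaving out 1 array at a time turned the sign of 25 members, whose log2 differences (lowest to highest) were Acaa2 -0.27 to 0.36, Acadl -0.36 to 0.092, Acadm -0.33 to 0.13, Acadvl -0.23 to 0.23, Cd36 -0.78 to 0.87, Cpt1a -0.48 to 0.040, Cpt1b -0.32 to 0.43, Cpt2 -0.15 to 0.097, Decr1 -0.20 to 0.22, Echs1 -0.32 to 0.049, Eci1 -0.19 to 0.087, Eci2 -0.094 to 0.065, Esrra -0.11 to 0.050, Esrrg -0.28 to 0.39, Etfa -0.19 to 0.47, Etfdh -0.069 to 0.40, Fabp3 -0.26 to 0.33, Hadh -0.32 to 0.043, Hadha -0.41 to 0.047, Hadhb -0.29 to 0.36, Lpl -0.57 to 0.33, Mlycd -0.11 to 0.16, Pdk4 -0.32 to 0.44, Ppargc1b -0.37 to 0.42, Slc25a20 -0.090 to 0.65. With the replicate number as a block in the model, 0 features and 0 members were called and 1564 features had an unadjusted limma p under 0.05. Same-numbered arrays deviated together from their group means (r = 0.68 across features), but 2 pairs do not settle whether the numbers pair the samples.

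For replicate 2 against replicate 1 the calls changed with the settings more than the differences did. Normexp called 1887 features and 10 members, quantile normalization 3 members, the test without a filter on dim probes 0 features and 0 members, and the model with group and replicate block together 3 members. Without 1 array, where the lone array is assumed to vary like the other pair, the calls ran from 0 to 1548 features and from 0 to 2 members. Signs turned with normexp at Acsl1 (-0.045), and with 1 array left out at 5 members, none of them called: Acsl1 -0.00026 to 0.058, Acads -0.17 to 0.40, Hadh -0.073 to 0.31, Ppargc1a -0.0064 to 1.01, Ucp3 -0.43 to 0.39. The cause of these changes was not tested. The number of arrays limits the precision. The replicate difference of Cd36 was 1.08 with normexp and 1.52 without it.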
